A study of Homo sapiens with 6 samples.

Results

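The DLX family was followed in the neuroblastoma line SH-SY5Y, a long-established human line of sympathetic neuron origin, with and without exposure to the organochlorine insecticide endosulfan. All 6 human DLX genes, DLX1 to DLX6, were represented, among 18132 genes on the array, by 12 probe sets out of the 49293 that were tested. The family was chosen by the measured values of DLX5, whose difference between endosulfan and control arrays was known from these same data, and every probe set annotated to 1 DLX gene alone was then taken in. The contrast therefore served to pick the family, and its values for the DLX genes are given as a description without a test. Endosulfan cells had received 3 µM of the compound for 24 h. The labels call the other group control and name no vehicle. Each group had 3 arrays that the labels call biological replicates of the same line. No culture or day is named, so p-values measure only the spread between these samples, which may be technical. Total RNA was measured on 1-colour Affymetrix arrays, on which a probe set is a group of short probes to 1 transcript region, and the values are log2 signals. Arrays have no read depth, so their number limits the precision.

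DLX proteins are homeodomain transcription factors related to the fly gene Distal-less. In vertebrates they lie in linked pairs that point towards each other, DLX1 with DLX2, DLX3 with DLX4 and DLX5 with DLX6, and the members of a pair share nearby enhancers. DLX1, DLX2, DLX5 and DLX6 act in the forebrain in the making and migration of GABAergic interneurons, and DLX5 and DLX6 also pattern the lower jaw from neural crest, the tissue from which sympathetic neuroblasts too arise. DLX3 acts in skin, hair and teeth, and DLX4 in placenta and blood.

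Promoter windows from RefSeq were at hand for DLX1, DLX2 and DLX6 alone, and all 3 are shown. DLX3, DLX4 and DLX5 had none. The windows, on GRCh38.p14, hold 250 bases before to 50 bases after the gene start and are written 5′ to 3′ on the strand of the gene. Capitals mark every match, on either strand, to the motifs described after the windows. The DLX6 window is chr7:97005303-97005602, plus strand, that of DLX1 is chr2:172085257-172085556, plus strand, and that of DLX2 is chr2:172102851-172103150, minus strand.
DLX6: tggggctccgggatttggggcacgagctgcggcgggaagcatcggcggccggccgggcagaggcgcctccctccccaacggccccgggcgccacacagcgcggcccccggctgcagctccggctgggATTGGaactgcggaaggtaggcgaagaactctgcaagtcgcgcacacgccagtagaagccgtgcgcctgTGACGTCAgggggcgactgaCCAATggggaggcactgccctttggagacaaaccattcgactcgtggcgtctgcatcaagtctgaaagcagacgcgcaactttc
DLX1: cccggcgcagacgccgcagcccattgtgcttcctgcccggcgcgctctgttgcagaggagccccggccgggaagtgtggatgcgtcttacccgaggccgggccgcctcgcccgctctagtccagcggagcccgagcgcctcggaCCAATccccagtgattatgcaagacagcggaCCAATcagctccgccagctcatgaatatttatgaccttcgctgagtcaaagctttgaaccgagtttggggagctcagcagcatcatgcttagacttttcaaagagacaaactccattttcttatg
DLX2: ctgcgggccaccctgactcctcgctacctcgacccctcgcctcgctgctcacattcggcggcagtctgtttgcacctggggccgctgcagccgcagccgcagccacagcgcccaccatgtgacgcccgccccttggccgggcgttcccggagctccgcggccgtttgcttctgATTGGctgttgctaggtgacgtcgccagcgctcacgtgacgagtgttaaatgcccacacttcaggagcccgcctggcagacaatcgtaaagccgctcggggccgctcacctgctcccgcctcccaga

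The DLX6 window held 1 copy of TGACGTCA, the full cyclic AMP response element that proteins of the CREB and ATF family bind, with its leftmost base at -54 from the gene start. That element was in 1.85% of the 35116 promoter windows of this length. The DLX6 window also held 2 CCAAT boxes, the letters that the factor NF-Y binds, 1 on each strand, at -123 and -34. DLX1 held 2 CCAAT boxes, at -106 and -75, and DLX2 held 1, on the opposite strand at -77. CCAAT was in 34.6% of all windows. These 3 windows held no copy of the homeodomain core TAATTA, the letters that DLX proteins themselves bind, which was in 4.84% of all windows. The TATA box, searched as TATAAA, was in 11.5% of all windows and in none of these 3. The element of ATF4 with C/EBP, searched as TGATGNAA, was in 3.62% of all windows and in none of these 3. An EGR site, searched as GCGNGGGCG, was in 9.43% of all windows and in none of these 3. A match in letters is a description and not a site, and its part in the DLX values was not tested. The GC content was 67.0% for DLX6, 59.0% for DLX1 and 67.7% for DLX2, beside a median of 58.7% over all windows.

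The arrays carried the identity that the labels give. Of the 16 measured markers of sympathetic neuroblasts, 15 lay above the array median on every array. Their mean level was 10.18 to 10.37 in control and 9.82 to 10.04 in endosulfan arrays (log2), so it was lower with endosulfan, as DLX5 and DLX6 were, and its part in their difference was not tested. Of the 16 markers, 9 differences were below 0 and 7 above, with a median of -0.16. The lowest were those of ISL1 (-1.33), ELAVL4 (-1.09) and STMN2 (-1.05), and the highest that of PHOX2A (0.27), picked for mention after their values were seen. Markers of other cell types had mean levels of 4.63 to 4.95 for 9 epithelial genes, 4.96 to 5.26 for 6 Schwann and glial genes, 5.60 to 5.75 for 10 mesenchymal genes, 4.11 to 4.24 for 6 blood genes and 5.13 to 5.52 for 6 endothelial genes over all arrays. The epithelial genes were at 4.63 to 4.84 in control and 4.84 to 4.95 in endosulfan arrays, ranges that barely met, and their part in the DLX values was not tested. In each of the other types too the ranges of the groups overlapped. In bulk RNA, fewer cells of a type and less RNA per cell cannot be told apart. The arrays' medians were 4.89 to 4.94. The arrays did not sort by group alone: over all probe sets Pearson's r was 0.987 between control 1 and control 2, 0.985 between endosulfan 1 and endosulfan 2 and 0.993 between endosulfan 1 and endosulfan 3, beside 0.994 between control 2 and endosulfan 2. Without any 1 array the DLX5 difference given below lay between -0.91 and -0.84, and that of DLX6 between -0.60 and -0.44. The poly-A spike-ins, bacterial transcripts added before labelling, were at 5.84, 6.13 and 7.73 in control and at 7.73, 7.81 and 8.80 in endosulfan arrays (log2).

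DLX5 and DLX6, which lie beside each other, were both lower in endosulfan-exposed cells on their brightest probe sets. The difference was 1.84-fold for DLX5 and 1.43-fold for DLX6. The remaining 10 DLX probe sets differed by at most 0.31 on the log2 scale, and the further probe set of DLX5 was on the higher side. No DLX probe set passed the threshold of a limma and Benjamini-Hochberg adjusted p below 0.05 over all 49293 probe sets, at which 0.00811% of all probe sets were called. At an unadjusted p below 0.05 with limma, 2 of the 12 DLX probe sets were lower and none was higher. Of all 49293 probe sets, 7648 were lower or higher at that level, and 4541 of these (9.21% of all) were lower. The adjusted p ranged from 0.215 for DLX5 and DLX6 to 0.883 over the family, by the same fit. Since the contrast chose the family, nothing is read from these counts.

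DLX5, a factor of interneuron, jaw and bone development, was measured on the probe set 11726841_a_at at 6.74, 6.68 and 6.83 in the control arrays. It was at 5.86, 5.84 and 5.92 in the endosulfan arrays. The groups stood clear of each other by 0.76 between the lowest control and the highest endosulfan array, and the arrays within a group lay close together. The means were 6.75 ± 0.08 and 5.87 ± 0.04 (SD, n = 3 each, log2), a difference of -0.88 ± 0.10 (SE). The limma fit gave this difference a 95% interval of -1.10 to -0.65. Counted once per gene on its brightest probe set, DLX5 was number 431 of the 18132 genes from the lowest difference upwards.

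The further DLX5 probe set, 11760651_a_at, ran the other way. It was at 3.81, 4.17 and 4.18 in control and at 4.40, 4.13 and 4.50 in endosulfan arrays. All 6 values were below the array medians, and the groups overlapped, with control 1 the lowest and endosulfan 2 among the controls. The difference was 0.29 ± 0.15 (SE), with an interval of -0.05 to 0.63. The mean of both probe sets put DLX5 at -0.29. Which of the pair follows the DLX5 transcript of these cells was not tested, and the lower value for DLX5 rests on 1 probe set of 2.

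DLX6, the partner of DLX5 in jaw and forebrain, had 1 probe set, 11734153_at, and no second measure of its transcript was at hand. It was at 7.24, 7.07 and 6.91 in control and at 6.46, 6.55 and 6.64 in endosulfan arrays. The groups were separate, by 0.27 between control 3 and endosulfan 3. The means were 7.07 ± 0.16 and 6.55 ± 0.09 (SD, n = 3 each, log2), a difference of -0.52 ± 0.12 (SE) with an interval of -0.80 to -0.24. Within the groups DLX5 and DLX6 did not keep 1 order of arrays: the highest control was control 3 for DLX5 and control 1 for DLX6. In endosulfan arrays, array 3 was the highest for both.

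The spike-in level, which differed between the groups, was nearly equal in control 2, endosulfan 1 and endosulfan 2. In those arrays DLX5 was at 6.68 against 5.86 and 5.84, and DLX6 at 7.07 against 6.46 and 6.55. Only 1 control array enters that comparison. A limma fit that held the spike-in level as a further term gave a difference of -0.83 for DLX5 and -0.59 for DLX6. The part of the spike-in level in these differences was not tested.

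**Figure D1:**
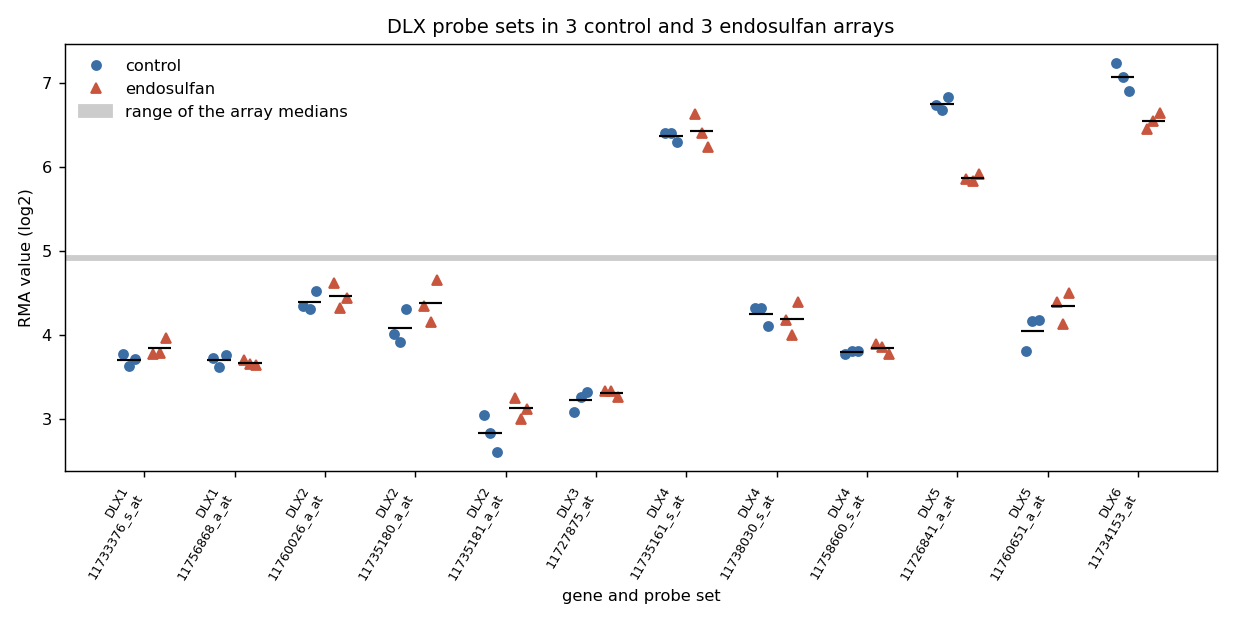
The log2 RMA value of each of the 12 DLX probe sets is shown for 3 control arrays (circles) and 3 endosulfan arrays (triangles), with a bar at each group mean and a grey band at the range of the array medians, 4.89 to 4.94. DLX5 on 11726841_a_at and DLX6 lie lower in all endosulfan arrays, and 9 probe sets lie below the band on every array.

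DLX1 and DLX2, the forebrain pair that acts first in interneuron precursors, gave weak signals. All 5 of their probe sets were below the array median on every array. The brightest DLX1 probe set, 11733376_s_at, was at 3.77, 3.63 and 3.72 in control and at 3.78, 3.78 and 3.97 in endosulfan arrays. The groups did not overlap, but the gap was 0.01, and the difference of 0.14 ± 0.11 (SE) was of the size of its error. The further DLX1 probe set was at 3.62 to 3.76 in control and 3.64 to 3.70 in endosulfan arrays, with a difference of -0.04 ± 0.10 (SE).

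DLX2 had 3 probe sets, all of them with overlapping groups. The brightest, 11760026_a_at, was at 4.35, 4.31 and 4.53 in control and at 4.62, 4.32 and 4.45 in endosulfan arrays, a difference of 0.07 ± 0.12 (SE). The others differed by 0.31 ± 0.16 (SE) and 0.30 ± 0.14 (SE). The first of these ran from 3.91 to 4.31 in control and from 4.15 to 4.65 in endosulfan arrays, and the second from 2.61 to 3.04 and from 3.00 to 3.25. Their size was that of the further DLX5 probe set, in the same direction.

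DLX3, a factor of skin, hair and enamel, had 1 probe set, 11727875_at, at 3.08, 3.26 and 3.32 in control and at 3.33, 3.33 and 3.26 in endosulfan arrays. The groups overlapped and the difference was 0.09 ± 0.11 (SE). Its signal was below the array median on every array.

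DLX4 was the third gene of the family with a probe set above the array median on every array. That probe set, 11735161_s_at, was at 6.41, 6.41 and 6.30 in control and at 6.63, 6.41 and 6.24 in endosulfan arrays. The endosulfan arrays spread to both sides of the controls, and the difference was 0.05 ± 0.12 (SE) with an interval of -0.23 to 0.34. The further DLX4 probe sets differed by -0.06 ± 0.13 (SE) and 0.05 ± 0.10 (SE), both with overlapping groups below the array median. The letters s_at in the names of all DLX4 probe sets and of the brightest DLX1 probe set mark, in the maker's naming, probes that can match more than 1 transcript.

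Among the 12 probe sets the groups were separate with endosulfan lower in 2 and with endosulfan higher in 1, and over all probe sets this held for 9.24% and 11.5%. The median difference was 0.06 over the DLX probe sets and 0.05 over all probe sets. Of the 9 DLX probe sets whose mean lay below the median of all probe sets, 7 were on the higher side, with a median difference of 0.09. Over all 24646 probe sets below that median, 63.7% were on the higher side and the median difference was 0.05.

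**Figure D2:**
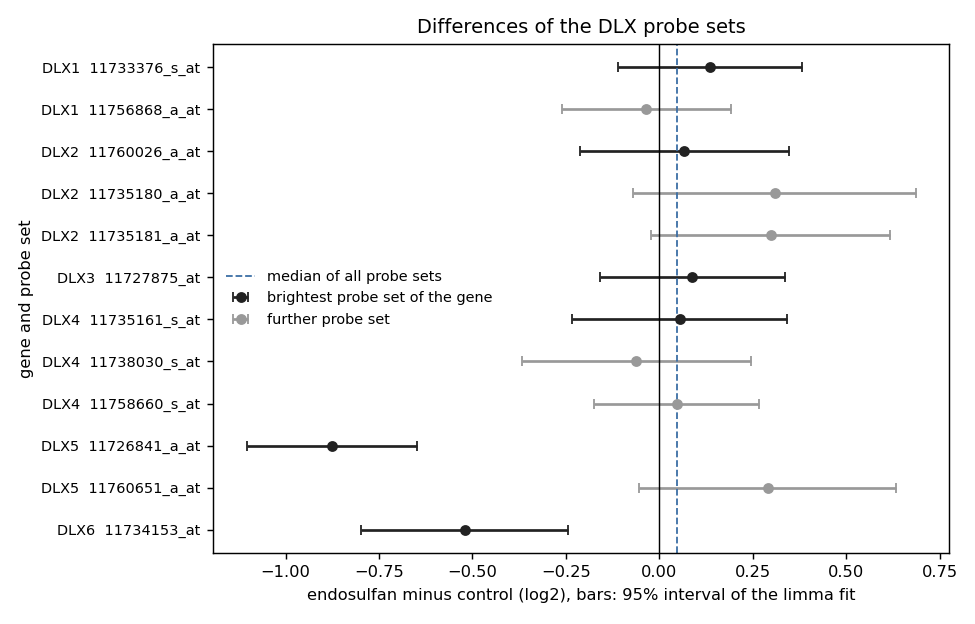
The difference of endosulfan minus control (log2) is shown for each DLX probe set with its 95% interval from the limma fit, in black for the brightest probe set of a gene and in grey for further ones. The dashed line is the median of all probe sets, 0.05. DLX5 on 11726841_a_at, at -0.88, and DLX6, at -0.52, are the probe sets whose intervals lie wholly below 0. The contrast chose the family, so the intervals are a description without a test.

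The genes whose pattern over the 6 arrays was most like that of DLX5 were sought among the 5938 genes with a level and a spread above the median. By Pearson's r these were ATP8B2 (0.983), ATF4 (0.978), CYB561 (0.977), UBE2QL1 (0.975) and APBB2 (0.974). All 5 had separate groups with endosulfan lower, and the likeness rests mainly on the step between the groups that DLX5 was chosen for. ATP8B2, a flippase subunit of membrane lipid transport, was at 8.37, 8.23 and 8.44 in control and at 7.82, 7.64 and 7.75 in endosulfan arrays, but 1 of its 3 probe sets was on the lower side. ATF4, a bZIP factor of the amino acid and stress response, was at 11.39, 11.57 and 11.53 and at 10.68, 10.53 and 10.79, on its single probe set. CYB561, an electron carrier of chromaffin vesicles, differed by -0.45 with 4 of its 9 probe sets lower. UBE2QL1, related to ubiquitin-conjugating enzymes, differed by -0.77, and APBB2, an adaptor that binds the amyloid precursor protein, by -0.63 with 4 of 7 probe sets lower. DLX6 had an r of 0.905 with DLX5, and 104 of the 5938 genes had one at least as high.

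The protein-coding genes next to the DLX pairs were described from their order in RefSeq's gene table, 3 on each side of a pair. Among all genes on their brightest probe sets, no neighbour passed a limma and Benjamini-Hochberg adjusted p below 0.05 over 18132 genes, at which 0.00552% of all genes were called. Beside DLX5 and DLX6, 5 of 6 neighbours were measured. ASNS, asparagine synthetase, was at 11.12, 10.58 and 10.77 in control and at 9.14, 10.39 and 9.77 in endosulfan arrays, a difference of -1.05 ± 0.30 (SE), with all 4 probe sets lower. The groups were separate, though endosulfan 1 lay far below endosulfan 2. SLC25A13, a mitochondrial aspartate and glutamate carrier, was at 9.19, 8.27 and 8.37 and at 7.31, 8.28 and 7.70, a difference of -0.84 ± 0.31 (SE), and its groups overlapped. The nearest neighbour measured, SDHAF3, an assembly factor of succinate dehydrogenase, differed by 0.06 ± 0.23 (SE). The tachykinin gene TAC1 differed by 0.14 ± 0.12 (SE) and the dynein subunit DYNC1I1 by -0.18 ± 0.19 (SE), both with weak signals and overlapping groups. None of the RNA genes listed at the DLX loci, DLX6-AS1 among them, had a probe set naming that gene alone, so they were not measured.

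Beside DLX1 and DLX2 the histone acetyltransferase HAT1 differed by 0.88 ± 0.35 (SE) with overlapping groups, and the pyruvate dehydrogenase kinase PDK1 by -0.81 ± 0.30 (SE) with separate ones. METAP1D, ITGA6 and SLC25A12 differed by 0.20, 0.21 and -0.14, and their groups overlapped. Beside DLX3 and DLX4 the acetyltransferase KAT7 was lower in every endosulfan array, at 8.86, 8.28 and 8.73 in control and 7.94, 8.08 and 7.82 in endosulfan arrays, on all 5 of its probe sets. The integrin subunit ITGA3 was higher in every endosulfan array, with a difference of 0.40 ± 0.11 (SE). FAM117A, TAC4, PDK2 and SAMD14 differed by 0.12, 0.05, 0.11 and 0.32 with overlapping groups. The DLX genes between these neighbours differed by at most 0.14 on their brightest probe sets.

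Signals and factors that act on DLX genes in the embryo were measured for 15 genes, and 0 passed the limma and Benjamini-Hochberg threshold. At an unadjusted p below 0.05 with limma, 0 were lower and 0 higher, beside 10.5% and 6.64% of all genes. The median difference was 0.05, equal to that of all genes. The smallest unadjusted p in the list belonged to PLCB3, the phospholipase of endothelin signalling, at 8.15 ± 0.29 in control and 8.51 ± 0.21 in endosulfan arrays (SD, n = 3 each). The growth factor BMP7 differed by 0.25, the morphogen SHH by 0.15 and the G protein subunit GNAQ by -0.33. HAND2, a factor of the jaw and of sympathetic neurons that was picked for mention after its values were seen, was at 13.19 ± 0.01 and 13.18 ± 0.12 (SD, n = 3 each).

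Proteins that bind or oppose DLX proteins, with the SMADs of BMP signalling and the CaM kinases, gave a median of 0.00 over 12 genes, with 6 on each side. None passed the threshold over all genes, and 1 was higher and none lower at an unadjusted p below 0.05 with limma, a level at which 6.64% of all genes were higher and 10.5% lower. The higher gene was NDN, a MAGE-family protein, at 5.42 ± 0.18 in control and 5.96 ± 0.09 in endosulfan arrays (SD, n = 3 each). CAMK2G, SMAD9 and CAMK2D differed by -0.22, 0.20 and -0.52. The homeodomain protein MSX2, which opposes DLX factors and was picked for mention after its values were seen, differed by 0.00 ± 0.11 (SE).

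Genes of the GABAergic programme that DLX factors act on or work with were measured for 43 genes, and 0 passed the threshold over all genes. At an unadjusted p below 0.05 with limma, 11 were lower and 2 higher, beside 10.5% and 6.64% of all genes. The median difference was 0.01, with 19 genes on the lower side and 24 on the higher, and its sign was not held under other settings, from -0.20 to 0.04. The lowest p values belonged to ISL1, SATB1, ETV1 and PROX1, transcription factors of neuronal subtypes. PROX1 was at 6.34, 5.67 and 5.45 in control and at 4.66, 5.04 and 5.13 in endosulfan arrays, and ETV1 at 6.21, 5.58 and 5.68 and at 4.84, 5.37 and 4.85. All 3 probe sets of PROX1 were lower, and 3 of the 8 of ETV1. ISL1 and SATB1 differed by -1.33 and -1.11. ISL1 is also in the list of sympathetic markers above. The genes of GABA synthesis and transport were picked for mention after their values were seen. GAD1 was at 3.78 ± 0.16 and 3.75 ± 0.11, and GAD2 at 4.43 ± 0.05 and 4.43 ± 0.04 (SD, n = 3 each). SLC32A1, the vesicular GABA transporter, differed by 0.01 ± 0.15 (SE).

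The jaw, tooth and bone genes, 32 measured, had a median of 0.07, and 11 differences were below 0 and 21 above. None passed the threshold over all genes, and 3 were higher, with 1 lower, at an unadjusted p below 0.05 with limma, beside 6.64% and 10.5% of all genes. TFAP2B, an AP-2 factor of neural crest, was at 10.86, 10.37 and 10.43 in control and at 9.93, 9.76 and 9.77 in endosulfan arrays, with all 3 probe sets lower. The homeobox gene GSC, the bone matrix gene IBSP and the collagen gene COL1A1 differed by 0.45, 0.32 and 0.24, of which GSC and IBSP had signals below 4.

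The closest relatives of the family, other homeobox genes of the NK-like branch, served as a comparison. Of 40 measured, 35 differences were above 0 and 5 below, beside 60.2% of all genes above 0, and the median difference was 0.13. Of the 40, 18 lay above the array median on every array. Over all probe sets with a mean below the median of all, 63.7% of differences were above 0. The part of signal level in the relatives' differences was not tested. None passed the threshold over all genes, and 2 were higher, with none lower, at an unadjusted p below 0.05 with limma, beside 6.64% and 10.5% of all genes. The differences of TLX2, VAX2, HMX1 and TLX3 were 0.34, 0.43, 0.27 and 0.33. The lowest of the 40, NOTO, singled out after its value was seen, was at -0.16.

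**Figure D3:**
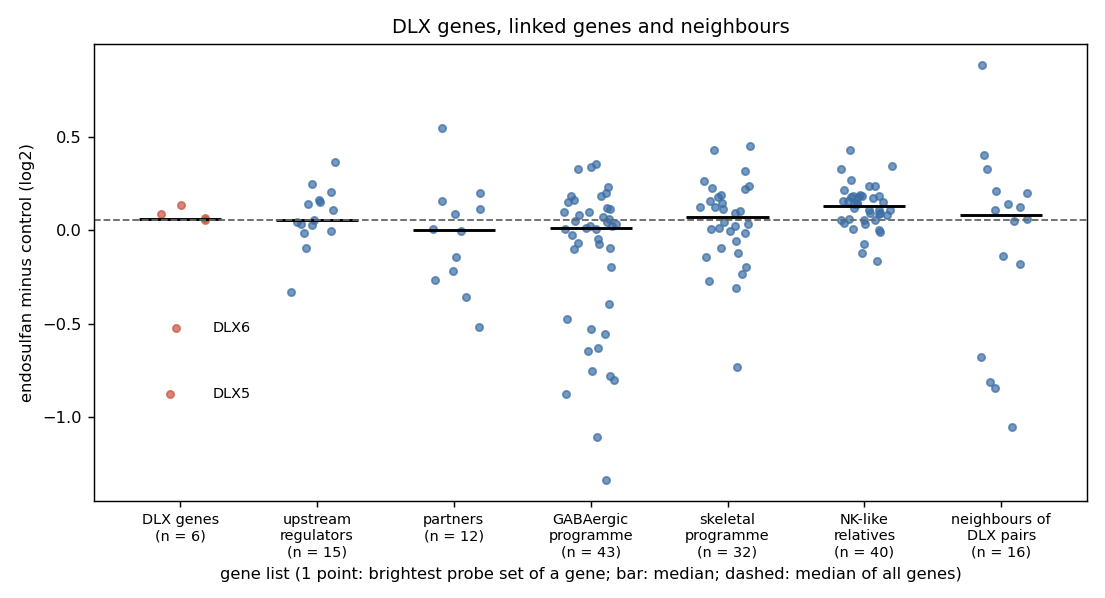
Each point is the difference of endosulfan minus control (log2) of 1 gene on its brightest probe set, for the DLX genes, their linked lists and their measured neighbours; bars are list medians and the dashed line is the median of all genes, 0.05. DLX5 and DLX6 lie apart from the other 4 DLX genes, and the lowest points are those of ISL1, at -1.33, among the GABAergic genes and ASNS, at -1.05, among the neighbours.

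The differences of DLX5 and DLX6 on their brightest probe sets were below 0 under every setting tried, which lends them no support. The replicate block, the level filter and the mean-variance trend leave a difference unchanged. Where the groups are separate, leaving out 1 array cannot turn the sign. For DLX6 the differences ran from -0.60 to -0.44. For DLX5 they ran from -0.91 to -0.81 on the brightest probe set, and the mean of both probe sets, at -0.29, was the one value outside that range. The further DLX5 probe set stayed above 0 under the settings, from 0.11 to 0.39, so the constant sign is that of a probe set. The brightest probe set of DLX2 ran from -0.01 to 0.17 and that of DLX4 from -0.05 to 0.15, each with both signs, and those of DLX1 and DLX3 were above 0 under all of them.

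**Figure D4:**
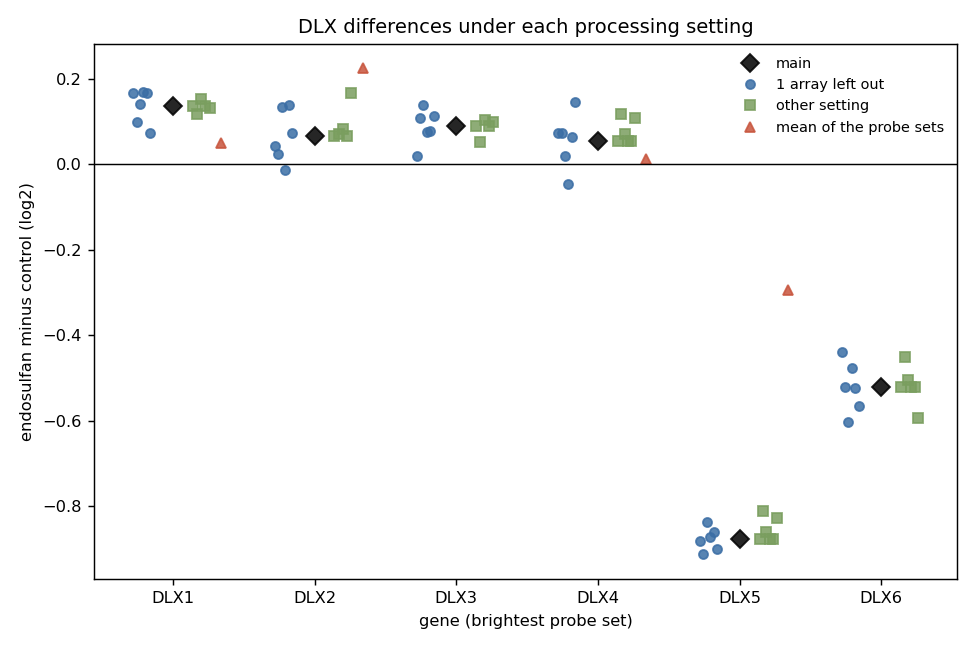
The difference of endosulfan minus control (log2) is shown for the brightest probe set of each DLX gene as reported (diamond), with 1 array left out (circles), under the other settings (squares) and as the mean of all the gene's probe sets (triangle). DLX5 and DLX6 stay below 0 throughout, and the triangle of DLX5, at -0.29, lies far from its other values. The further DLX5 probe set, which stayed above 0, is not drawn on its own.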

How the data were processed

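Per the submitters' processing notes the authors used Affymetrix Expression Console and RMA, and the deposited values are RMA log2 signals. Their versions and options, and a genome build, are not given in the sources. Of 49395 probe sets, 102 control probe sets were set aside and 49293 were tested, without a filter on dim probe sets. The difference of 3 endosulfan and 3 control arrays was fitted with limma 3.58.1 (R 4.3.3, lmFit and eBayes), with Benjamini-Hochberg adjustment over all probe sets, or over 18132 genes by the brightest of the probe sets that name 1 gene (44988 in all). The fit was run on simulated data with independent noise for each probe set and array, which leaves out shifts shared across an array. Promoter windows came from RefSeq's table, which held 3 of the 6 DLX genes, and figures from matplotlib 3.10.9.

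The members and lists were chosen with earlier results of these data known. Named genes were all DLX genes, up to 4 genes of each list by smallest unadjusted p, all measured neighbours and the 5 genes most like DLX5. Alternatives were a replicate block, further quantile normalization, median centring, a level filter, a mean-variance trend, a spike-in covariate, a fold limit of 1.5, a gene's mean over its probe sets and leaving out each array. The replicate numbers were not taken as pairs.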

Additional observations from a re-analysis of the deposited data

Results flagged for a closer look

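Control probe sets, which stand outside the probe sets tested, gave higher signals with endosulfan. Poly-A spike-ins (24 probe sets) averaged 6.57 ± 1.02 in control and 8.11 ± 0.60 in endosulfan arrays (SD, n = 3 each), a difference of 1.55 on the log2 scale (exact permutation test, two-sided p = 0.2). The hybridisation controls (18 probe sets) averaged 10.05 ± 0.29 and 10.70 ± 0.19 (SD, n = 3 each), a difference of 0.64 (exact permutation test, two-sided p = 0.1, the smallest that 3 against 3 arrays can give).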

How the results depend on the processing

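No DLX probe set passed the limma and Benjamini-Hochberg threshold under any of the settings. At an unadjusted p below 0.05 with limma the main fit had 2 of 12, beside 7648 of all 49293 probe sets. The level filter had 2 of 3, beside 4771 of 24646. The other settings with that count had 2 to 4 of 12, beside 1003 to 9701 of all. Nothing is read from these counts. DLX5 moved from -0.88 to -0.81 with further quantile normalization and to -0.29 with the mean of its probe sets, and ran from -0.91 to -0.84 with 1 array left out. Of all probe sets, 4 passed. With the replicate block 0 passed (4671 at an unadjusted p below 0.05 with limma), and with the poly-A covariate 0 (1003 likewise). With 1 array left out the count ran from 0 to 7: it was 7 without control 2, 1 without endosulfan 1 and 0 without each of the others (4366 to 9701 at an unadjusted p below 0.05 with limma). The cause was not tested. Deviations of same-numbered arrays correlated at -0.51, -0.40 and 0.05, and not every array correlated best with its own number. With 3 arrays per group, such values cannot decide whether same-numbered arrays share a culture or a day. The median of the GABAergic list, 0.01, was -0.20 among probe sets above the median level, -0.06 with the poly-A covariate, and -0.05, -0.03 and -0.01 without control 1, endosulfan 1 and endosulfan 3. That of the partners, 0.00, ran from -0.07 to 0.03. No call above background is in the deposited values, so weak DLX signals may be background. The array's own probe sets for background averaged 4.27 to 4.43, and the brightest of them was at 10.3 to 10.6. All 12 DLX probe sets, with those of DLX5 and DLX6, lay below that brightest one on every array.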
